A study of Homo sapiens with 4 samples.

Results

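The genes described are 9 parts of the NRF2 pathway, the cell's main transcriptional defence against oxidants and electrophiles: NFE2L2, KEAP1, NQO1, HMOX1, GCLC, GCLM, TXNRD1, SRXN1 and ME1. They were picked by symbol, with earlier results of these data known. Each matched 1 Ensembl identifier among the 48162 genes of the deposited read count table. The cells were NCI-H1703, an established human lung cancer line. A vector group (pCDNA) and a group with stable overexpression of EGFR-AS1, a long noncoding RNA transcribed opposite the EGFR gene, had 2 libraries each, lettered A and B. The medium (RPMI, 10% serum) and the selection with 100 µg/ml hygromycin were shared by both groups. Whether a stable line was 1 clone or a pool is not in the labels, and neither is whether A and B were separate cultures. The p-values therefore measure only the spread between these libraries, which may be technical.

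NFE2L2 encodes the transcription factor NRF2. KEAP1 binds NRF2 and hands it to a CUL3 ubiquitin ligase for degradation. Oxidants and electrophiles modify cysteines of KEAP1, after which NRF2 accumulates and, paired with a small MAF protein, binds antioxidant response elements in its target genes. The targets among the 9 genes make glutathione (GCLC, GCLM), keep thioredoxin and peroxiredoxins reduced (TXNRD1, SRXN1), reduce quinones (NQO1), break down haem (HMOX1) and make NADPH (ME1). In lung cancers the pathway is often switched on by mutation of KEAP1 or NFE2L2. Much of the control acts on the NRF2 protein, which these RNA counts do not measure.

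Antioxidant response elements are short, and the RefSeq promoter windows, from 250 bases before to 50 bases after a transcript start, let their letters be seen directly. The core TGACNNNGC was searched on both strands, where the opposite strand reads GCNNNGTCA. Windows were on hand for 8 of the 9 genes, 11 windows in all, and those of KEAP1, GCLM, TXNRD1 and ME1 held a match (5 of 11 windows, 45.45%). Of all 35116 promoter windows of this length 13.35% held one, and of 80 windows of the other pathway genes listed below 14 did (17.5%). The lines give 1 match upstream of each start that had one, in capitals, so that the letters of these 4 genes can be compared. They read 5′ to 3′ on the gene's own strand, from RefSeq, build GRCh38.p14.
GCLM, chr1:93909431-93909489, minus strand: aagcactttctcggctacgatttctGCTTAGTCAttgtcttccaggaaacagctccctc
TXNRD1, first start, chr12:104215655-104215713, plus strand: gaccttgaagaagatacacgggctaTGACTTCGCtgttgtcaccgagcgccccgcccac
TXNRD1, second start, chr12:104286905-104286963, plus strand: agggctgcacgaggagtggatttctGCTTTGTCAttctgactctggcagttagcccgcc
KEAP1, chr19:10502772-10502827, minus strand: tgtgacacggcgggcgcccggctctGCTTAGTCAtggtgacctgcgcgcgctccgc
ME1, chr6:83431155-83431213, minus strand: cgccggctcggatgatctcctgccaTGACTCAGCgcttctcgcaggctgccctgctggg

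The match in GCLM began 34 bases before the start and had the same 9 letters as that of KEAP1, which began 31 bases before its start. A second match in the KEAP1 window began 54 bases before the start. Those of TXNRD1 began 99 and 102 bases before the first and second start. Another match lay across the first TXNRD1 start. The match in ME1, 137 bases before the start, is the only one of these that also holds TGANTCA, the letters of an AP-1 site; 0.56% of all windows held such a joint match. A further ME1 match lay 12 to 20 bases after the start. NQO1, GCLC, SRXN1, NFE2L2 and the other KEAP1 window had no match. A match is a description of letters and not evidence of binding, and elements farther from a start lie outside the windows.

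Counted reads came to 41518275 for vector A, 32601449 for vector B, 32680467 for overexpression A and 33750041 for overexpression B. EGFR-AS1 was at 1.39 and 1.17 CPM in vector and at 20.2 and 17.4 CPM with overexpression, where CPM is the read count scaled to library depth with TMM factors (log2 fold change 3.86, SE 0.22, edgeR adjusted p = 5.62e-09). EGFR was at 334 and 394 CPM in vector and 403 and 429 CPM with overexpression and did not pass (edgeR adjusted p = 0.352). Because whole cultures were sequenced, fewer cells with a transcript and less of it per cell cannot be told apart. Of 5 epithelial markers, KRT18 took most reads, and the summed level was 73.6 and 88.7 CPM in vector against 37.1 and 30.7 CPM with overexpression. EPCAM had 2 or 3 reads in each library and CDH1 3 to 8, so those defining epithelial markers were nearly off in all 4 libraries. The 6 lung lineage markers summed to 1.09 and 0.603 CPM in vector and 8.64 and 8.70 CPM with overexpression, mostly NKX2-1 (14 and 6 against 230 and 246 reads), with SFTPC at 0 in all libraries. The 4 immune markers summed to 0.119 to 0.603 CPM and the 2 endothelial markers analysed to 0.0708 to 0.332 CPM. PTPRC, CD3E and CDH5 were at 0 except in overexpression A, which had 3, 1 and 1 reads. The 5 fibroblast markers summed to 8.71 and 5.43 CPM in vector and 14.4 and 11.9 CPM with overexpression, mostly COL1A1. DCN and KRT5 were at 0 in all but overexpression A, which had 39 and 19 reads. COL1A2 had 37 reads and LUM 8 in overexpression A, against 0 or 1 in every other library. The part of these marker differences in the results that follow was not tested.

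GCLM and TXNRD1 rose, none of the 9 genes fell by the test, and ME1 had no read. Of the 8 genes with enough reads to be tested, 2 were called higher at an edgeR adjusted p under 0.05 and 0 lower. DESeq2 also called 2 higher and 0 lower. By edgeR, GCLM, TXNRD1, KEAP1, NQO1 and HMOX1 had an unadjusted p under 0.05. The share of all genes under that looser threshold was not counted, so the 14.5% below is no background for it. With 1 library left out at a time, the log2 fold change ran from 0.53 to 0.79 for GCLM and from 0.29 to 0.55 for TXNRD1. The calls of such fits, for these genes and for all genes, are given with the dependence on processing. Among all 16106 genes tested 14.5% were called, 7.8% higher and 6.67% lower. The 2 groups did not overlap in CPM for 6 of the 8 genes, against 55.5% of all tested genes. The median log2 fold change of the 8 genes was 0.20, against 0.00 for all tested genes. Because the 9 genes were chosen with earlier results known, their differences from all genes support nothing. Together the 9 genes took 0.467% and 0.498% of the reads in vector and 0.596% and 0.642% with overexpression. TXNRD1, HMOX1 and NQO1 held most of these reads, with TXNRD1 alone at 44.9% to 50.1% of them.

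**Figure D1:**
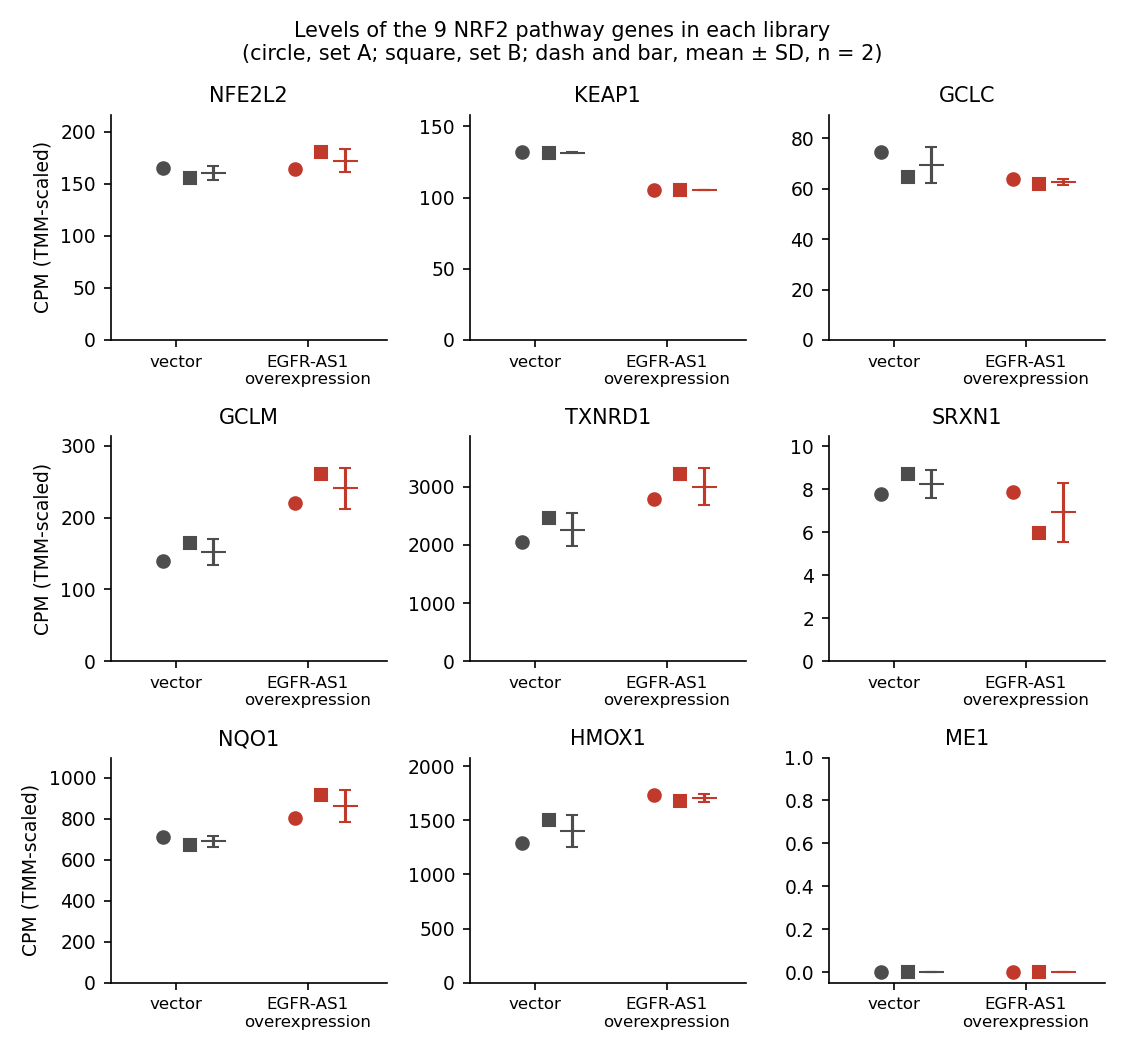
Level of each of the 9 genes in TMM-scaled CPM (y axis, linear) in vector and EGFR-AS1 overexpression libraries (x axis); circles are set A, squares set B, and the dash with bar is the mean ± SD of 2 libraries. Both overexpression libraries lie above both vector libraries for GCLM, TXNRD1, NQO1 and HMOX1 and below them for KEAP1 and GCLC, and ME1 lies at 0 in every library.

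Per kilobase of exon in GENCODE 29, the 9 genes spanned a wide range of levels in vector. HMOX1 was highest at 581 CPM per kb (537 and 624 in vector A and B), followed by TXNRD1 at 336 (306 and 366) and NQO1 at 212 (206 and 218). Below a 6.07-fold step came KEAP1 at 35.0, GCLM at 28.02 and NFE2L2 at 26.8 CPM per kb, of which GCLM and NFE2L2 overlapped between libraries (25.7 to 30.4 and 26.0 to 27.6). GCLC was at 8.04 and SRXN1 at 3.06 CPM per kb. With overexpression GCLM, at 44.4 CPM per kb, stood above NFE2L2 (28.8) and KEAP1 (27.96), whose libraries overlapped; the other genes had the same order. The annotation of the counts is not given in the sources used here, so these lengths may differ from those behind the counts.

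The factor and its inhibitor came first. NFE2L2 (ENSG00000116044, chromosome 2) had 7001 and 4905 reads in vector A and B and 5444 and 6064 in overexpression A and B. Scaled, these were 165, 156, 164 and 180 CPM, so the groups overlapped. The means were 160 ± 6.73 CPM in vector and 172 ± 11.1 CPM with overexpression (SD, n = 2), and NFE2L2 missed the threshold with a difference of 0.10 on the log2 scale (SE 0.12; edgeR adjusted p = 0.633); its unadjusted 95% interval ran from -0.15 to 0.35. The difference was 0.06 without vector B, 0.16 without overexpression A and 0.03 without overexpression B. Exons of ENSG00000213963 on the same strand cover 17.63% of the NFE2L2 exonic bases, and that gene had 123 and 69 reads in vector and 216 and 238 with overexpression. How reads shared by both genes were counted is not given in the sources used here.

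KEAP1 (ENSG00000079999, chromosome 19) had 5585 and 4137 reads in vector and 3480 and 3542 with overexpression. Its scaled levels were nearly equal within each group, at 132 and 131 CPM in vector and 105 and 105 CPM with overexpression, and the groups did not overlap. The log2 difference was -0.32 (SE 0.11, unadjusted 95% interval -0.57 to -0.08), and the edgeR adjusted p of 0.074 missed the threshold. Over all 10 alternative fits the log2 difference lay between -0.34 and -0.31. Per read of NFE2L2 there were 0.798 and 0.843 reads of KEAP1 in vector and 0.639 and 0.584 with overexpression. This ratio was lower in both overexpression libraries than in either vector library.

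Among 8 further control genes, all tested, 1 rose and none fell, or 12.5% called against the 14.5% of all tested genes. MAFK, one of the small MAF partners of NRF2, was at 36.6 and 33.9 CPM in vector and 56.5 and 46.4 CPM with overexpression (log2 fold change 0.54, SE 0.14, edgeR adjusted p = 0.0127; 0.285 without overexpression A). MAFK shares 18.15% of its exonic bases with exons of TMEM184A on the opposite strand. BACH1, a repressor that competes with NRF2 for the same elements, was at 18.8 and 20.9 CPM in vector and 21.9 and 27.2 CPM with overexpression and did not pass (edgeR adjusted p = 0.224). SQSTM1, whose protein p62 can draw KEAP1 into autophagy, was at 1958 and 1875 CPM against 2187 and 2183 CPM, a log2 difference of 0.19 that did not pass (edgeR adjusted p = 0.316).

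The 2 subunits of glutamate-cysteine ligase, which catalyses the rate-limiting step of glutathione synthesis, had different results: the modifier rose and the catalytic subunit did not pass. GCLM (ENSG00000023909, chromosome 1), the modifier subunit, had 5901 and 5184 reads in vector and 7277 and 8787 with overexpression. These were 139 and 165 CPM in vector and 220 and 261 CPM with overexpression, with both overexpression libraries above both vector libraries. GCLM rose 1.58-fold, from 152 ± 17.9 to 240.4 ± 29.1 CPM (SD, n = 2), or by 0.66 on the log2 scale (SE 0.13; edgeR adjusted p = 0.00245). The call was lost without overexpression B (log2 fold change 0.53, edgeR adjusted p = 0.069) and held in the other 9 alternatives. GCLC (ENSG00000001084, chromosome 6), the catalytic subunit, was at 74.5 and 64.5 CPM in vector against 63.7 and 62.0 CPM. The fitted difference for GCLC, -0.15 on the log2 scale (SE 0.12, unadjusted 95% interval -0.41 to 0.12), missed the threshold (edgeR adjusted p = 0.494); it was -0.04 without vector A and -0.24 without vector B. Per GCLC read there were 1.87 and 2.55 GCLM reads in vector and 3.45 and 4.21 with overexpression, so both overexpression libraries lay above both vector libraries; the ratio was not tested. Each set B library had the higher ratio of its group.

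Of 10 other glutathione genes, 7 were tested, 2 rose and 1 fell (42.9% called against 14.5%). GSTM3, a glutathione transferase, was at 34.5 and 38.5 CPM in vector and 53.9 and 53.1 CPM with overexpression (log2 fold change 0.55, SE 0.13, edgeR adjusted p = 0.00738). GSR, which reduces oxidised glutathione, went from 128 and 130 CPM to 162 and 176 CPM (0.39, SE 0.12, edgeR adjusted p = 0.0363). GSR lies on chromosome 8 among 50 expressed coding neighbours with a median log2 fold change of 0.20, of which 18 were called. SLC3A2, the heavy chain of the cystine transporter, fell from 444 and 404 CPM to 320 and 321 CPM (-0.40, SE 0.12, edgeR adjusted p = 0.029). These 3 calls were lost without overexpression A and without overexpression B. The log2 fold changes were then 0.535 and 0.564 for GSTM3, 0.44 and 0.321 for GSR, and -0.408 and -0.406 for SLC3A2. SLC7A11, the light chain that carries cystine, did not pass, at 695 and 707 CPM in vector and 575 and 785 CPM with overexpression (edgeR adjusted p = 0.877). The overexpression libraries of SLC7A11 lay on either side of the vector libraries, and its log2 difference was 0.16 without overexpression A and -0.29 without overexpression B.

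TXNRD1 (ENSG00000198431, chromosome 12), the cytosolic selenoenzyme that reduces thioredoxin with NADPH, had 87102 and 77380 reads in vector and 92035 and 108429 with overexpression. The levels were 2055 and 2456 CPM in vector and 2780 and 3220 CPM with overexpression. The groups did not overlap, but vector B and overexpression A lay closer to each other than the 2 vector libraries did. TXNRD1 rose 1.33-fold, or by 0.41 on the log2 scale (SE 0.13; edgeR adjusted p = 0.0417). The call was lost with RLE factors (edgeR adjusted p = 0.0536). It was also lost without overexpression A and without overexpression B, at log2 fold changes of 0.506 and 0.3. SRXN1 (ENSG00000271303, chromosome 20), sulfiredoxin, which repairs overoxidised peroxiredoxins, had 330 and 275 reads in vector and 261 and 201 with overexpression. At 7.79, 8.73, 7.88 and 5.97 CPM in the same order, its groups overlapped, and SRXN1 missed the threshold with -0.25 on the log2 scale (SE 0.20; edgeR adjusted p = 0.474); the value was -0.47 without overexpression A and -0.07 without overexpression B. In GENCODE 29 ENSG00000270299 on the same strand shares 84.95% of the SRXN1 exonic bases and had 0 to 3 reads per library, and reads falling in both genes may be missing from either count.

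Among 11 further genes of the thioredoxin system, 8 were tested, 1 rose and none fell, again 12.5% against 14.5%. PRDX1, a peroxiredoxin that removes hydrogen peroxide, was at 468 and 583 CPM in vector and 713 and 748 CPM with overexpression (log2 fold change 0.47, SE 0.13, edgeR adjusted p = 0.0196). Its call was lost without overexpression A and without overexpression B, at log2 fold changes of 0.501 and 0.438. Exons of MMACHC on the opposite strand cover 24.9% of the PRDX1 exonic bases. TXN, thioredoxin itself, was at 190 and 258 CPM in vector and 274 and 302 CPM with overexpression and did not pass (0.36, SE 0.14, edgeR adjusted p = 0.104), although without vector B, the higher vector library, it passed at 8.76e-05 by edgeR (adjusted p, log2 difference 0.60); without vector A the log2 difference was 0.16.

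NQO1 (ENSG00000181019, chromosome 16), a flavoenzyme that reduces quinones by 2 electrons and is widely used as a readout of NRF2, had 30070 and 21157 reads in vector and 26684 and 30860 with overexpression. These were 709 and 671 CPM in vector and 806 and 916 CPM with overexpression, with no overlap of the groups. The log2 difference was 0.32 (SE 0.12, unadjusted 95% interval 0.07 to 0.57), and the edgeR adjusted p of 0.0912 did not pass. The log2 difference of NQO1 was 0.36 without vector A, 0.28 without vector B, 0.40 without overexpression A and 0.22 without overexpression B. With library totals in place of TMM factors NQO1 passed (edgeR adjusted p = 0.0475). It did not pass with RLE factors (edgeR adjusted p = 0.106) or by DESeq2 (adjusted p = 0.0765). An antisense gene, ENSG00000261602, covers 17.67% of the NQO1 exonic bases and had only 23 to 34 reads per library.

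Of 15 other detoxification and export genes 11 were tested, of which 4 rose, 3 fell and 4 did not pass (63.6% called against 14.5%). The 3 that fell were the ABC transporters ABCC1, ABCC2 and ABCC3, while a further transporter of the list, ABCC4, did not pass, at 52.7 and 64.5 CPM in vector and 54.4 and 62.6 CPM with overexpression (edgeR adjusted p = 1.0; named after its values were seen). PTGR1, a reductase of prostaglandins and reactive aldehydes, had 32.4 and 33.3 CPM in vector and 56.8 and 61.9 CPM with overexpression (log2 fold change 0.85, SE 0.13, edgeR adjusted p = 0.000235). AKR1C1, an aldo-keto reductase, had 140 and 66 reads in vector and 250 and 202 with overexpression, or 3.30 and 2.09 against 7.55 and 5.998 CPM (1.31, SE 0.25, edgeR adjusted p = 0.00209). Because AKR1C1 is nearly identical to AKR1C2, which had 0 to 4 reads, its count is uncertain. PTGR1 and AKR1C1 kept their calls in all 10 alternatives.

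PIR, pirin, an iron-binding nuclear protein, was at 109 and 107 CPM in vector and 136 and 143 CPM with overexpression (log2 fold change 0.37, SE 0.12, edgeR adjusted p = 0.0413). Its call was lost with no filter on low counts (edgeR adjusted p = 0.0562). It was also lost without overexpression A and without overexpression B, at log2 fold changes of 0.4 and 0.332. OSGIN1, an oxidative stress-induced growth inhibitor, was at 47.8 and 29.6 CPM in vector and 60.6 and 58.4 CPM with overexpression (0.62, SE 0.17, edgeR adjusted p = 0.0248). The vector libraries of OSGIN1 stood far apart, and its log2 fold change was 1.005 without vector A and 0.32 without vector B, where the call was lost (edgeR adjusted p = 0.136), as it was with library totals (0.054).

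The export pumps ABCC1, ABCC2 and ABCC3 carry glutathione and glucuronide conjugates out of cells. ABCC1 fell from 135 and 146 CPM to 95.4 and 93.2 CPM (log2 fold change -0.58, SE 0.12, edgeR adjusted p = 0.00302; 0.0556 without overexpression B). It lies on chromosome 16 between EMP2 and MOSMO, where all 50 of its nearest expressed coding neighbours had a lower fitted value, 33 were called, and the median log2 fold change was -0.50. ABCC2 fell from 86.8 and 99.4 CPM to 64.0 and 71.7 CPM (-0.46, SE 0.12, edgeR adjusted p = 0.0204). It did not pass without vector B (0.0563), overexpression A (0.279) or overexpression B (0.0628). Its neighbours on chromosome 10 had a median of -0.005. ABCC3 had few reads, 75 and 41 in vector and 27 and 14 with overexpression (-1.33, SE 0.39, edgeR adjusted p = 0.0323). That call was lost by DESeq2 (adjusted p = 0.134), with library totals (0.0568), without vector A (0.0784) and without overexpression B (0.43).

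**Figure D2:**
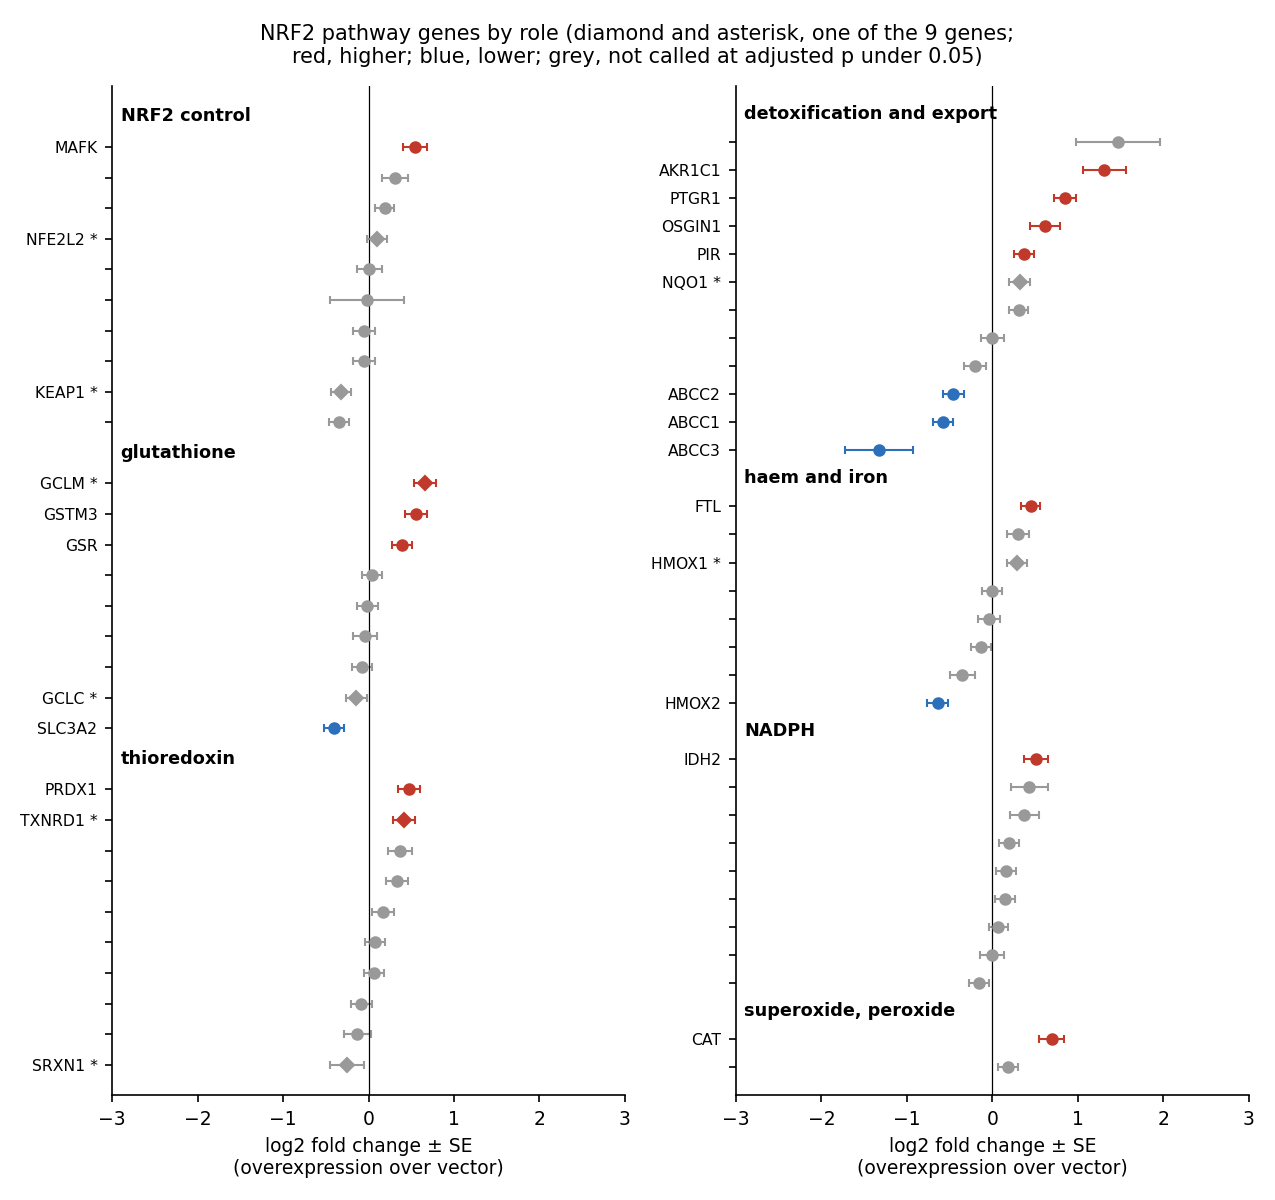
Log2 fold change ± SE (x axis, overexpression over vector, edgeR, 2 libraries per group) for 8 of the 9 genes (diamonds, asterisk) and 52 other tested genes of the pathway (circles), grouped by role; red and blue mark genes higher and lower at an adjusted p under 0.05 and grey those not called, which are named only for the 8 genes. GCLM and TXNRD1 are red, KEAP1 lies at -0.32 in grey, and ABCC1, ABCC2, ABCC3, SLC3A2 and HMOX2 are blue.

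HMOX1 (ENSG00000100292, chromosome 22), the inducible haem oxygenase that opens haem to biliverdin, iron and carbon monoxide, had 54764 and 47326 reads in vector and 57330 and 56636 with overexpression. At 1292 and 1502 CPM in vector and 1732 and 1682 CPM with overexpression, its groups did not overlap. The log2 difference of 0.29 (SE 0.12, unadjusted 95% interval 0.03 to 0.55, edgeR adjusted p = 0.131) did not pass. The log2 difference of HMOX1 was 0.40 without vector B, 0.18 without vector A, 0.26 without overexpression A and 0.31 without overexpression B. With library totals HMOX1 passed (edgeR adjusted p = 0.046). It did not pass with RLE factors (edgeR adjusted p = 0.157) or by DESeq2 (adjusted p = 0.14).

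Of the other 8 haem and iron genes, 7 were tested, 1 rose and 1 fell (28.6% called against 14.5%). HMOX2, the constitutive haem oxygenase, fell from 65.4 and 75.8 CPM to 45.5 and 45.0 CPM (log2 fold change -0.64, SE 0.13, edgeR adjusted p = 0.00229), and kept its call in all 10 alternatives. It lies on chromosome 16 between PAQR4 and RMI2, where 48 of its 50 nearest expressed coding neighbours had a lower fitted value, 39 were called, and the median log2 fold change was -0.65. FTL, the light chain of the iron store ferritin, rose from 3222 and 3122 CPM to 4430 and 4219 CPM (0.45, SE 0.11, edgeR adjusted p = 0.0146). Its call was lost without overexpression A and without overexpression B, at log2 fold changes of 0.404 and 0.48. FTL has many processed pseudogenes, so its count may be missing or sharing reads.

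ME1 (ENSG00000065833, chromosome 6), the cytosolic malic enzyme that makes NADPH from malate, had 0 reads in all 4 libraries. At these depths 0 reads allow up to 0.0708 and 0.0952 CPM in vector and 0.0906 and 0.0891 CPM with overexpression, a limit of 3 reads that covers counting error only. No exon of another gene overlaps ME1 in GENCODE 29. Of 9 other NADPH enzymes, all tested, 1 rose and none fell, or 11.1% called against the 14.5% of all tested genes. IDH2, the mitochondrial isocitrate dehydrogenase, was at 32.8 and 27.99 CPM in vector and 46.3 and 40.5 CPM with overexpression (log2 fold change 0.51, SE 0.14, edgeR adjusted p = 0.0211; 0.0564 without vector B and 0.271 without overexpression A).

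Of 4 superoxide and peroxide genes 2 were tested, and catalase rose. CAT was at 17.9 and 18.7 CPM in vector and 27.8 and 31.3 CPM with overexpression, or 0.69 higher on the log2 scale (SE 0.15, edgeR adjusted p = 0.00406; 0.0747 without overexpression B). Over all lists, 65 further pathway genes were chosen with earlier results of these data known, of which 63 had an identifier and 52 were tested. Of the 52, 11 rose and 5 fell, or 30.8% called against the 14.5% of all genes; because of that choice the difference between these shares supports nothing. DESeq2 was fitted to the 62 of these genes with any read and called 11 higher and 5 lower. The 5 lower were not the same 5 as by edgeR, since ABCC3 did not pass by DESeq2 (adjusted p = 0.134). Over all 25926 genes with a read DESeq2 called 2058. By edgeR the median log2 fold change of the 52 was 0.07, with 30 positive and 22 negative values. The calls with 1 library left out are given with the dependence on processing, beside those of all genes.

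**Figure D3:**
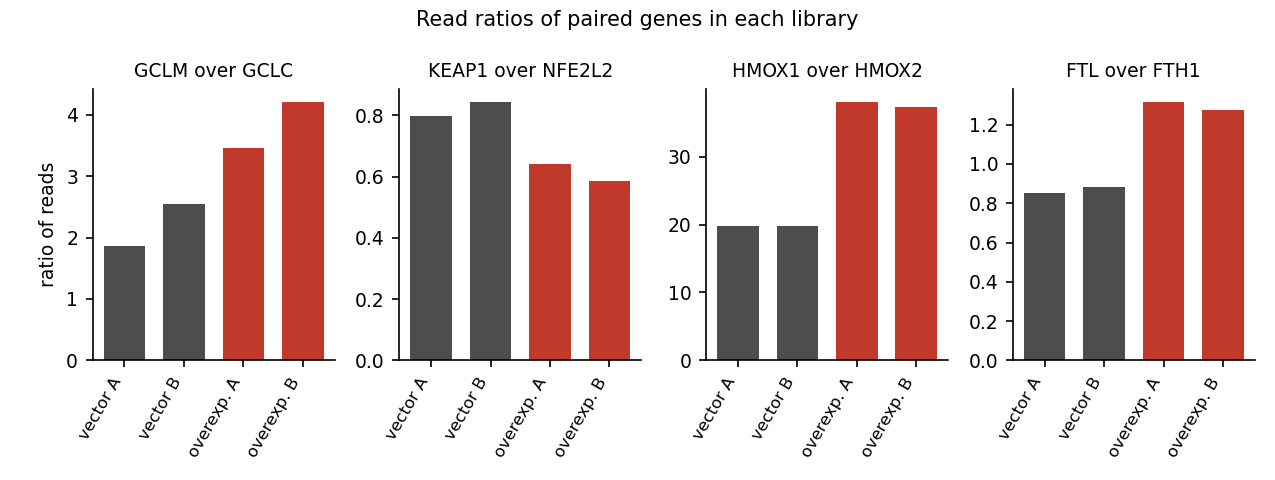
Ratio of reads of a gene pair (y axis, from 0) in each of the 4 libraries (bars; grey vector, red overexpression). The GCLM to GCLC ratio is 1.87 and 2.55 in vector and 3.45 and 4.21 with overexpression, and the KEAP1 to NFE2L2 ratio is 0.798 and 0.843 against 0.639 and 0.584.

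Ratios of further pairs were chosen after their values were seen. Per HMOX2 read there were 19.8 HMOX1 reads in each vector library and 38.1 and 37.3 with overexpression. Of this pair HMOX2 was called lower (log2 fold change -0.64), while HMOX1 did not pass (0.29). Per read of FTH1, the ferritin heavy chain, there were 0.851 and 0.885 FTL reads in vector and 1.32 and 1.28 with overexpression. Exons of BEST1 on the opposite strand cover 62.41% of the FTH1 exonic bases. The ratio of TXNRD1 to TXN overlapped between the groups, with 10.8 and 9.53 TXNRD1 reads per TXN read in vector and 10.2 and 10.6 with overexpression.

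Around ABCC1 and HMOX2 most neighbours on chromosome 16 had lower fitted values, so the neighbours of the 8 tested genes are given too. Over the 50 nearest expressed coding genes, the median log2 fold change was 0.12 around GCLM, with 8 called, 0.07 around TXNRD1, with 3 called, and -0.005 around KEAP1, with 5 called. It was 0.09 around NFE2L2, with 9 called, 0.12 around GCLC, with 12 called, -0.07 around NQO1, with 2 called, and -0.002 around HMOX1, with 7 called. Near the end of chromosome 20 the 32 neighbours of SRXN1 had a median of -0.10, with 7 called.

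GCLM was the gene with the smallest p among the 9, and its pattern over the 4 libraries was compared with 9390 other genes of at least 10 CPM. The closest were HOOK3, CDC73 and BAG4, with a root mean square distance of 0.0143, 0.017 and 0.0171 between centred log2 levels. HOOK3, an adaptor of the dynein motor, was at 47.1 and 56.3 CPM in vector and 74.5 and 90.5 CPM with overexpression. CDC73, a subunit of the PAF1 transcription complex, went from 36.0 and 41.4 to 55.8 and 67.5 CPM. BAG4, a co-chaperone, went from 54.1 and 62.8 to 82.8 and 101 CPM. Because these genes were picked for likeness to GCLM over the same libraries, their difference between the groups follows from the choice and is given with no test. HOOK3 and BAG4 lie on chromosome 8, where their neighbours had medians of 0.28 and 0.40. With 4 libraries in 2 groups such a likeness is a description only.

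**Figure D4:**
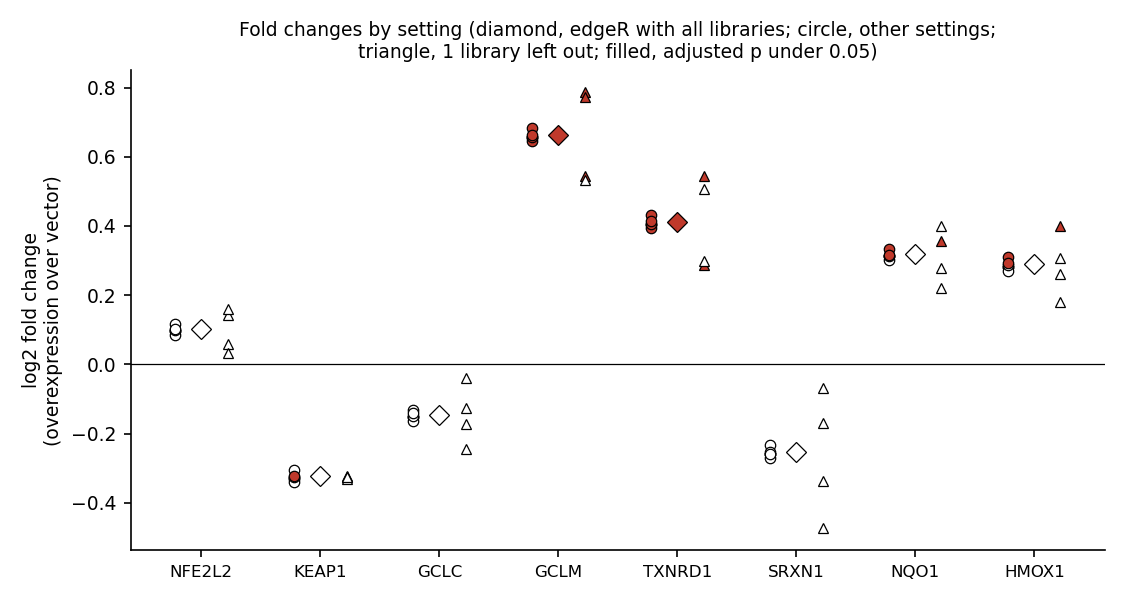
Log2 fold change (y axis, overexpression over vector) of the 8 tested genes under each setting; diamonds use edgeR with all 4 libraries, circles the other fits with all libraries, and triangles the fits with 1 library left out, filled where the adjusted p is under 0.05. No gene changes sign; GCLM is filled except without overexpression B, and the TXNRD1 triangles without an overexpression library are empty.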

How the data were processed

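The table deposited by the authors held raw read counts, whole numbers in 1 column for each library and 1 row for each Ensembl identifier. Per the labels' protocols, strand-specific mRNA libraries with inserts of 250 to 300 bp were sequenced. The submitters' processing notes name STAR, HTSeq, DESeq2 and hg19; their versions, the annotation release, the strand setting and the handling of shared reads were not stated there. Groups and set letters came from sample titles.

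Counts were tested over all genes with edgeR 4.0.16 in R 4.3.3 (glmQLFit, glmQLFTest), TMM factors, filterByExpr (minimum count 10), group as the only term, and Benjamini-Hochberg adjustment over the 16106 genes tested; calls are at an adjusted p under 0.05. Standard errors are the log2 fold change over the square root of F. Intervals are 95% and unadjusted. Python 3.11.15 computed levels, ratios and motif matches. The fits were tested on simulated data. Alternatives were DESeq2 1.42.0, RLE factors, library totals, 2 other filters on low counts (none, and 1 CPM in 2 libraries), each library left out, and the set letter as a block.

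Symbols, lengths, overlaps and neighbour order came from reference tables on GRCh38 (GENCODE 29). The authors' build was hg19, so coordinates are printed for RefSeq promoters only. TXNIP, SOD2 and PECAM1 are not analysed here.

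The genes and lists were chosen with earlier results of these data known. Named were the 9 genes, every called gene of the lists, SLC7A11, BACH1, SQSTM1, TXN, EGFR-AS1, EGFR and the 3 genes most like the one with the smallest p; 1 further gene of this rule is not reported here. Libraries of 32601449 to 41518275 reads make counting error small beside the spread between libraries for all but the genes with few reads.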

Additional observations from a re-analysis of the deposited data

How the results depend on the processing

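The log2 fold changes of the 8 tested genes had the same sign in all 10 alternatives. Of the 9 genes 2 were called with all libraries, and 1 with RLE factors, 4 with library totals and 5 with the set letter as a replicate block; leaving out 1 library gave 0 to 3. The 5 under the block were GCLM, TXNRD1, NQO1, HMOX1 and KEAP1 (edgeR adjusted p = 0.0168 for KEAP1, 0.0283 for NQO1 and 0.048 for HMOX1), and TXN also passed (0.00849). The set letters are not known to mark a shared batch or day; deviations of the A libraries from their group means correlated at 0.169 across genes, with only 2 letters. Under the block 3467 of all genes and 23 of the other pathway genes were called, against 2332 and 16 in the main fit. With RLE factors these counts were 2324 and 16, and with library totals 2169 and 15. Leaving out 1 library gave 1271 to 3522 of all genes and 7 to 18 of the other pathway genes. Where a library was left out, the lone one of its group was taken to vary like the other group. Without an overexpression library the spread thus came from the vector pair alone, and the reverse. This bears on the calls of such fits beside the fold changes themselves. Of 340 values for 34 single genes, 297 stayed on their side of the threshold, 34 lost a call and 9 gained one. Low read numbers limit ABCC3 and SRXN1.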

Other observations

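The absence of ME1 reads was set beside its neighbours on chromosome 6, chosen after the value was seen and ordered by RefSeq. On one side RWDD2A had 232 to 375 reads per library and PGM3, an enzyme of amino sugar synthesis, 1530 to 1913. On the other side PRSS35 had 0 reads in all 4 libraries, SNAP91 2 to 18 and RIPPLY2 2 to 10, while CYB5R4, a cytochrome b5 reductase, had 1220 to 1531. Of the related malic enzymes, mitochondrial ME2 was at 112 and 120 CPM in vector and 98.2 and 110 CPM with overexpression, and ME3 at 11.1 and 12.2 against 15.8 and 14.4 CPM; neither passed the test (edgeR adjusted p = 0.437 and 0.159).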
